A study of Mus musculus with 17 samples.

Results

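Lung RNA of mice that drank perfluorooctanoic acid (PFOA) was compared with lung RNA of mice on vehicle water over 3 genotypes at once, with genotype as a blocking factor, to find the exposure effect that WT, KO and KI mice had in common. All 17 libraries of the series entered the comparison, 9 on PFOA and 8 on vehicle. The deposited table held 31245 genes, 26946 had a total of at least 20 counts and were tested, and the 26073 autosomal genes among them are described here. The rule that set these members used the labels, the chromosome and the total count, and no exposure effect.

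PFOA is a perfluorinated carboxylic acid and an agonist of the nuclear receptor PPARα. WT mice were purchased Sv/129 animals, and the PPARα-null (KO) and humanized PPARα (KI) mice came from breeding pairs of mouse PPARα-null and human PPARα heterozygous animals. From 6 weeks of age all mice ate a custom diet modelled on the diet of American adults, and for 14 weeks they drank either sucrose water (vehicle) or the same water with PFOA at 6.2 μg/mL. The groups were WT vehicle (n = 2), WT PFOA (n = 3), KO vehicle (n = 3), KO PFOA (n = 3), KI vehicle (n = 3) and KI PFOA (n = 3). Each library was 1 mouse. Both sexes were used, but all KO libraries came from females. The labels call the exposure Hi-PFOA.

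Several gene programs run through the comparison. Liver X receptors (LXRs) are nuclear receptors for oxysterols that raise cholesterol efflux transporters, lipoprotein-handling enzymes and the lipogenic factor SREBP-1c, and in the lung they act in macrophages and in alveolar type 2 cells. Interferons induce antiviral enzymes, immunity GTPases and the class I antigen presentation machinery in most cell types. The conducting airways are lined by club cells and by multiciliated cells, whose axonemes are built from dynein arms and radial spokes under the transcription factor Foxj1.

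Ppara itself did not follow the KO label: its level ranged from 4.39 to 7.21 CPM (counts relative to the library total, scaled by TMM) in the 5 WT libraries, from 8.82 to 11.7 CPM in the 6 libraries labelled KO and from 9.08 to 20.4 CPM in the 6 KI libraries. Reads outside a deleted part would still be counted, so the gene total does not check the label, and KO below means the libraries labelled KO. Total estimated counts ran from 4116118 to 9237356 per library with a median of 7524757, and 3 counts correspond to 0.325 to 0.729 CPM. In WT vehicle mouse 122 and KO vehicle mouse 137, 65.3% and 61.3% of the counts fell on protein-coding genes, against 74.4% to 80.4% in the other 15 libraries. Both are vehicle libraries, so several results that rest on them are given with and without them. Others are given with all libraries only. Among these, Tyrobp, Mmrn1, H2-K1, Lair1 and Chil3 had their lowest vehicle value in 1 of these 2 libraries. The lung markers Sftpc (surfactant protein C) and Ager (alveolar type 1 cells) were between 677 and 3501 CPM and between 435 and 1276 CPM. Both were lowest in KO vehicle mouse 137. The heart gene Myh6 ranged from 161 to 5543 CPM and the α-globin gene Hba-a1 from 27.0 to 217 CPM, with full overlap between exposures.

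With edgeR's quasi-likelihood test and Benjamini-Hochberg adjustment over all tested genes, 1 autosomal gene passed an adjusted p under 0.2, the false discovery rate used in the study (0.00384% of those tested), and 0 passed it together with a fold change over 2 (0%). At an unadjusted p under 0.05 there were 998 genes with a higher level on PFOA (3.83%) and 1168 with a lower one (4.48%). DESeq2 run on the same genes called 119 at an adjusted p under 0.2, of which 75 were higher and 44 lower, and 25 of these were over 2-fold. Of its 119 calls 117 had an edgeR p under 0.01 and one sign in all genotypes. Both tests used the same counts, so this overlap is not independent. The edgeR count depended on single mice: it was 246 (102 higher and 144 lower, 34 of them over 2-fold) without KI PFOA mouse 139, 60 without KI vehicle mouse 102, and 0 without WT vehicle mouse 122 or without KO PFOA mouse 154. Genes that edgeR did not call with all libraries are described below by their values.

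The same-direction genes, with an unadjusted p under 0.01 in the blocked fit and the same sign of the log2 fold change in WT, KO and KI, numbered 512. Of these 257 were higher on PFOA (0.986% of the genes tested) and 255 were lower (0.978%), while 25 further genes had such a p with signs that differed between genotypes. A small p in the blocked fit itself favours genes with 1 sign, so the small number that differed is no separate evidence of sharing. Without WT vehicle mouse 122 and KO vehicle mouse 137 the same-direction genes were 212 higher and 81 lower, with the protein-coding share added to the model 197 and 75, and without KI PFOA mouse 139 344 and 447. Protein-coding genes made up 424 of the 512, and 406 of them had a mean of at least 1 CPM, 224 higher and 182 lower. Sharing a sign in all 3 genotypes was common by itself, at 4009 higher genes (15.4%) and 3683 lower genes (14.1%). A stricter pattern, with each PFOA library above each vehicle library of its own genotype, held for 17 genes (0.0652%), and the reverse for 6 genes (0.023%). The median log2 fold change over all autosomal genes was -0.01, with 0.04 for WT, -0.04 for KO and 0.0051 for KI.

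The gene that passed was Mylip (chromosome 13, 45389742 to 45412022, plus strand, ENSMUSG00000038175, build GRCm38), which encodes the E3 ubiquitin ligase IDOL that targets the LDL receptor for degradation and is induced by LXRs. Its level in WT lungs was 44.4 and 34.1 CPM on vehicle and 101, 70.5 and 57.8 CPM on PFOA. KO lungs had 25.6, 45.2 and 36.3 CPM on vehicle and 55, 84.6 and 62.5 CPM on PFOA. In KI lungs the values were 52.5, 30.7 and 38.8 CPM and 110.4, 87.4 and 62.9 CPM. Each PFOA library lay above each vehicle library, also across genotypes. Mylip rose 1.99-fold on PFOA (log2 fold change 0.99 ± 0.15 SE, edgeR adjusted p = 0.0494), with 0.96 for WT, 0.91 for KO and 1.1 for KI. The interaction of genotype and exposure had an unadjusted p of 0.869 for Mylip in the edgeR fit. Its log2 fold change ranged from 0.90 to 1.06 over 29 alternative fits, but the edgeR call was lost with the library code (a number in the library names) as a covariate (adjusted p = 0.38), without WT vehicle mouse 122 (adjusted p = 0.285), without that library and KO vehicle mouse 137 (adjusted p = 0.39) and without KO PFOA mouse 154 (adjusted p = 0.219). DESeq2 gave it an adjusted p of 1.5e-05.

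Of the other LXR targets, the efflux and lipoprotein genes Abca1, Abcg1 and Lpl had the same sign of effect as Mylip in each genotype. Abca1 (chromosome 4, 53030787 to 53159895, minus strand, ENSMUSG00000015243), the transporter that loads cholesterol onto apolipoproteins, was at 228 and 190.5 CPM on vehicle and 465, 355 and 303 CPM on PFOA in WT lungs. The KO lungs had 85, 139 and 143 CPM and 186, 214 and 177 CPM, and the KI lungs 176, 189 and 167 CPM and 402, 307 and 163 CPM. Exposed lungs were above vehicle lungs in each genotype except for KI PFOA mouse 139, which lay just below its 3 vehicle libraries. The log2 fold change of Abca1 was 0.73 ± 0.15 SE (edgeR adjusted p = 0.288), with 0.84 for WT, 0.65 for KO and 0.71 for KI. Abcg1 (chromosome 17, 31057675 to 31117988, plus strand, ENSMUSG00000024030), which exports cholesterol to lipoprotein particles, was at 70.3 and 27.5 CPM and 113, 84.5 and 81 CPM in WT. Its KO values were 22.3, 71.8 and 72.5 CPM on vehicle and 75.5, 98.1 and 73.1 CPM on PFOA, and its KI values 54.9, 46.2 and 50.3 CPM and 78.4, 87 and 55.1 CPM. The exposed and vehicle libraries of Abcg1 did not overlap in any genotype, although in KO and KI the nearest pair was almost level, and its log2 fold change was 0.65 ± 0.20 SE. Without WT vehicle mouse 122 and KO vehicle mouse 137, which held its lowest values, the log2 fold change of Abcg1 was 0.39.

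**Figure D1:**
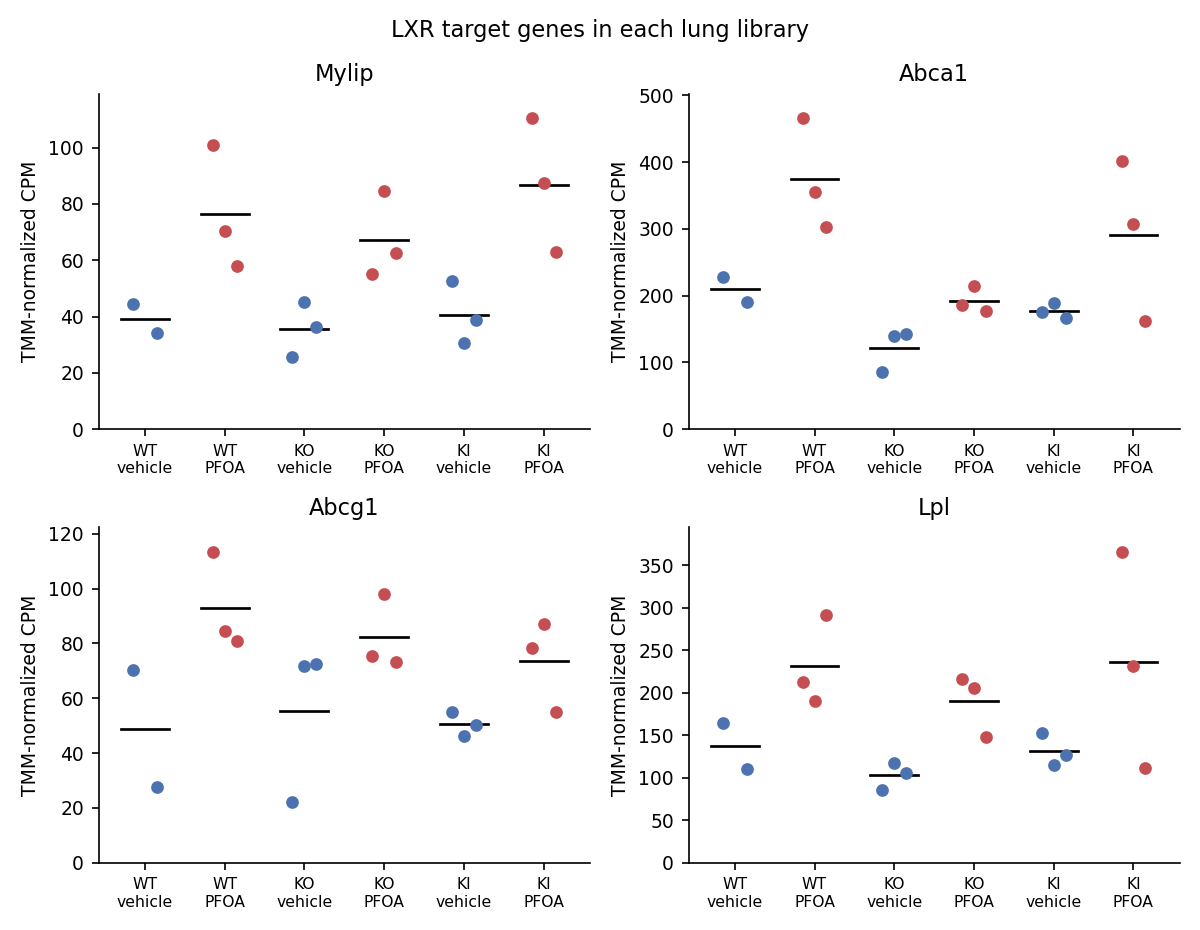
Level of Mylip, Abca1, Abcg1 and Lpl in each library (TMM-normalized CPM, y axis) by genotype and exposure (x axis). Points are mice, blue on vehicle and red on PFOA, and lines are group means. For Mylip the lowest PFOA library (55 CPM) stands above the highest vehicle library (52.5 CPM), while for Abca1 and Lpl KI PFOA mouse 139 lies below the KI vehicle libraries.

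Lpl (chromosome 8, 68880491 to 68907448, plus strand, ENSMUSG00000015568) encodes lipoprotein lipase. In WT it was at 165 and 111 CPM on vehicle and 212, 190.2 and 291 CPM on PFOA, in KO at 85.2, 118 and 105 CPM and 216, 205 and 148 CPM, and in KI at 152, 115 and 126 CPM and 365, 231 and 112 CPM. The groups were apart in WT and KO, and in KI mouse 139 again lay below the vehicle libraries. Lpl had a log2 fold change of 0.83 ± 0.17 SE (edgeR adjusted p = 0.288), with 0.75 for WT, 0.88 for KO and 0.85 for KI. Lpcat3, which remodels phospholipids, had a log2 fold change of 0.46 ± 0.13 SE, and Apoe, the apolipoprotein secreted by macrophages, one of 0.46 ± 0.15 SE with 0.47 for WT, 0.78 for KO and 0.14 for KI. Of the 17 LXR target genes, 12 were higher in all 3 genotypes and 1, the drug and glutathione transporter gene Abcc1, was lower, against 15.4% and 14.1% of all autosomal genes. At an unadjusted p under 0.05, 10 were higher and 1 was lower. The median of the list was 0.40, with 0.43 for WT, 0.44 for KO and 0.37 for KI. It was 0.30 without WT vehicle mouse 122 and KO vehicle mouse 137, when the genotype medians were 0.14 for WT, 0.24 for KO and 0.29 for KI. With the protein-coding share added to the model the genotype medians were 0.07 for WT, 0.31 for KO and 0.35 for KI. The same-direction members were Mylip, Abca1, Abcg1, Lpl, Srebf1, Scd1, Scd2, Lpcat3 and Apoe. Nr1h3, the gene of LXRα itself, had a log2 fold change of -0.0086 ± 0.08 SE.

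**Figure D2:**
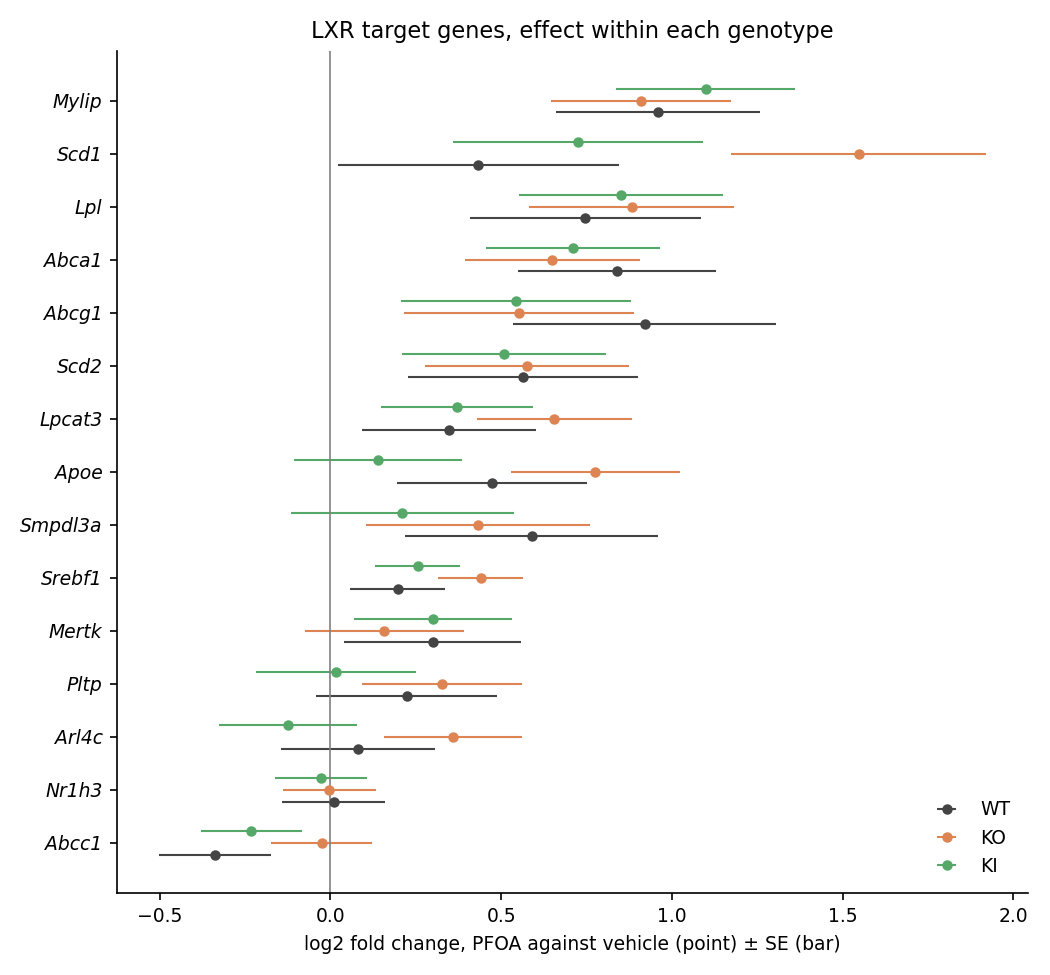
Log2 fold change of PFOA against vehicle (x axis, points, with bars of ± 1 SE) within WT (grey), KO (orange) and KI (green) for the LXR target genes with a mean of at least 1 CPM, ordered by the blocked fit. Mylip, Lpl, Abca1, Abcg1 and Scd2 lie to the right of 0 at similar sizes in each genotype, while Scd1 ranges from 0.43 in WT to 1.55 in KO.

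The promoters of 3 lipid genes of the same-direction set held a relaxed LXR-type direct repeat (letters NGGTNANNNNNGGTCA, searched on both strands), and their windows are printed because this element is the letter pattern that LXR-RXR dimers are known to bind. The windows run from 250 bases before to 50 after a RefSeq gene start in build GRCm38.p6, and the matched 16 bases are in capitals, in each case on the reverse strand of the window. The match began 67 bases before the start in Abca1 (chr4:53159846-53160145, minus strand), 182 before in Srebf1 (chr11:60210422-60210721, minus strand, 1 of 3 starts given for the gene) and 225 before in Fasn (chr11:120824498-120824797, minus strand).
Abca1: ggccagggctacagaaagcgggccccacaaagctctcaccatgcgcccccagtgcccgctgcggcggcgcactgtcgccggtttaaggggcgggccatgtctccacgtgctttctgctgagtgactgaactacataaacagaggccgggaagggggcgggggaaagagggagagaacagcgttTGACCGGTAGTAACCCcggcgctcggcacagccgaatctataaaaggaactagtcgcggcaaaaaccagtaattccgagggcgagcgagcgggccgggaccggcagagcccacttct
Srebf1: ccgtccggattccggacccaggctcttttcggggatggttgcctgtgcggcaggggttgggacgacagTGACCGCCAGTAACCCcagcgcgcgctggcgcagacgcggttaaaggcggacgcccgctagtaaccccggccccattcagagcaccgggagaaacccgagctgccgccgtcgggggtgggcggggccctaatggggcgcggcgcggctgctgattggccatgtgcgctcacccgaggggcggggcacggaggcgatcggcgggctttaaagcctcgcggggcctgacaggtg
Fasn: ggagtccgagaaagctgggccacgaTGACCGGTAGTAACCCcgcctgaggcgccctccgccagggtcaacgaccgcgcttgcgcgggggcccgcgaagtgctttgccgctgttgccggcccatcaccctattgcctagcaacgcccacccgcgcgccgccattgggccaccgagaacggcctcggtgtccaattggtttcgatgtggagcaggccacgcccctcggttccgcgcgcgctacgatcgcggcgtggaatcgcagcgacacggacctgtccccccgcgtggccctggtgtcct
The matched bases of Abca1 and Fasn were identical. Such a match was present in 0.226% of the 27025 genes with a RefSeq promoter window, in 2 of the 11 LXR target genes with a window, in 3 of the 171 higher same-direction genes with one and in 0 of the 161 lower ones. With both half-sites exact (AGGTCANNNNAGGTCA) none of these genes had a match, and 0.0148% of all genes did. A match describes letters only, and no binding was measured.

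With all libraries, some genes of fatty acid synthesis were also higher in all 3 genotypes. Srebf1, which encodes the lipogenic factor SREBP-1, was at 68.7 and 60.8 CPM on vehicle and 82.9, 72.5 and 67.5 CPM on PFOA in WT, at 48.6, 58.4 and 54.6 CPM and 77.3, 74.7 and 67.6 CPM in KO, and at 69.7, 65.4 and 62.8 CPM and 78.5, 80.4 and 77.3 CPM in KI. The groups were apart in KO and KI, and in WT 1 PFOA library lay below the higher vehicle library. Its log2 fold change was 0.30 ± 0.07 SE, with 0.20 for WT, 0.44 for KO and 0.26 for KI. Scd1, the main stearoyl-CoA desaturase, was at 1069 and 307 CPM and 952, 745 and 1090.0 CPM in WT, at 228, 537 and 746 CPM and 1637, 1385 and 1400.0 CPM in KO, and at 798, 927 and 668 CPM and 1224, 1357 and 1377 CPM in KI. The KO and KI groups did not overlap, and the WT groups did. Scd1 had a log2 fold change of 0.93 ± 0.24 SE, Scd2 of 0.55 ± 0.17 SE, Acaca (acetyl-CoA carboxylase) of 0.41 ± 0.10 SE and Fasn (fatty acid synthase) of 0.49 ± 0.16 SE. In WT, Fasn was at 446 and 243 CPM on vehicle and 348, 353 and 451 CPM on PFOA. For Scd1 and Fasn the higher WT sign rested on WT vehicle mouse 122, which held the lower vehicle value. The other vehicle library, mouse 107, lay above most WT PFOA libraries for both genes. Scd1 and Scd2 are close paralogs, and reads could be split between them. Of the 24 genes of fatty acid synthesis tested, 12 were higher in all 3 genotypes and 0 were lower, with a median of 0.19 that was 0.11 without WT vehicle mouse 122 and KO vehicle mouse 137. Without those libraries 6 members were higher in all 3 genotypes, and the WT median was 0.02. At an unadjusted p under 0.05 there were 10 higher and 0 lower members.

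Other lipid programs had shares near the 3.83% and 4.48% of all autosomal genes. Of the 30 PPARα target genes tested, 1 was higher and 0 lower at an unadjusted p under 0.05, and 3 and 1 kept 1 sign in all genotypes. The list median was 0.07, with 0.15 for WT, 0.20 for KO and -0.16 for KI. Its same-direction member was Retsat, the enzyme that saturates retinol, with a log2 fold change of 0.46 ± 0.14 SE. Among the 20 cholesterol synthesis genes tested, 1 was higher and 0 lower at that p, and the median was 0.08. Stard5, a sterol-binding transfer protein outside these lists, was apart in each genotype (18.7 to 27.7 CPM in the vehicle libraries and 25 to 32.2 CPM in the PFOA libraries), with a log2 fold change of 0.32 ± 0.09 SE.

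The leukocyte lists with the highest median log2 fold changes were those of NK and cytotoxic cells (0.80), neutrophils (0.63) and T cells (0.59). In bulk lung RNA, a change in the number of cells of a type and a change in RNA per cell cannot be told apart. Trac, the constant segment of the T cell receptor α chain, was at 1.73 and 1.8 CPM on vehicle and 5.2, 3.07 and 4.11 CPM on PFOA in WT, at 0.921, 2.39 and 1.88 CPM and 5.71, 4.05 and 5.08 CPM in KO, and at 2.23, 1.15 and 1.83 CPM and 2.4, 3.98 and 2.66 CPM in KI. Exposed and vehicle mice did not overlap in any genotype. The log2 fold change of Trac was 1.16 ± 0.23 SE (edgeR adjusted p = 0.288). Gzma, the gene of the cytotoxic protease granzyme A, was at 2.13 and 1.15 CPM and 4.05, 2.78 and 6.43 CPM in WT, at 2.99, 5.77 and 6.53 CPM and 16.1, 12.4 and 18.4 CPM in KO, and at 8.44, 4.58 and 8.86 CPM and 8.45, 10.8 and 13.7 CPM in KI, so that the groups were apart in WT and KO and overlapped in KI. Gzma had a log2 fold change of 1.14 ± 0.22 SE (edgeR adjusted p = 0.288), with 1.4 for WT, 1.57 for KO and 0.59 for KI. Ccl5, a chemokine made by activated T and NK cells, had log2 fold changes of 1.23 for KO and 0.84 for KI, and no WT value is given because WT vehicle mouse 122 was below its floor of 3 counts.

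The T cell list held 10 same-direction genes among 28 tested, all higher. Among them were Trac, Tcf7 (a transcription factor of naive and memory T cells), Bcl11b (a factor of T cell commitment), Cd247 and Cd3e (chains of the receptor complex), Cd226, Cd27, Cd6 and Skap1. The log2 fold changes of these ran from 0.52 (Skap1) to 1.16 (Trac). Cd27, a costimulatory receptor, was apart in each genotype at 0.655 to 4.27 CPM in the vehicle libraries and 2.92 to 5.58 CPM in the PFOA libraries, although its log2 fold change was 1.72 in WT and 0.32 in KI. At an unadjusted p under 0.05, 22 members were higher and 0 lower. The list median was 0.11 in KI against 0.89 in WT and 0.91 in KO. The NK and cytotoxic list had a median of 0.80 (1.16 for WT, 0.94 for KO and 0.48 for KI), with 12 of 23 members higher and 0 lower at that p. Its same-direction members were Gzma, Ccl5, Il2rb (the interleukin-2 receptor β chain), Prf1 (perforin), the NK receptors Klrk1, Klre1 and Ncr1, the sphingosine receptor S1pr5 and the mast cell protease Cma1, which had a mean under 1 CPM. Klre1 and Ncr1 were near or at 0 in the WT vehicle libraries (0.266 and 0 CPM and 0.4 and 0 CPM), so no WT fold change is given for them. Without WT vehicle mouse 122 and KO vehicle mouse 137 the medians were 0.50 for the T cell list and 0.68 for the NK list.

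B and plasma cell genes differed from this pattern: 3 of 24 were higher in all 3 genotypes, and the list median was 0.77 for WT, 0.88 for KO and -0.60 for KI. The summed level of the T cell list was 134 and 111 CPM on vehicle and 259, 191 and 213 CPM on PFOA in WT, 155, 151 and 173 CPM and 288, 237 and 326 CPM in KO, and 209, 172 and 205 CPM and 175, 234 and 209.8 CPM in KI. The sums were apart in WT and KO and overlapped in KI.

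**Figure D3:**
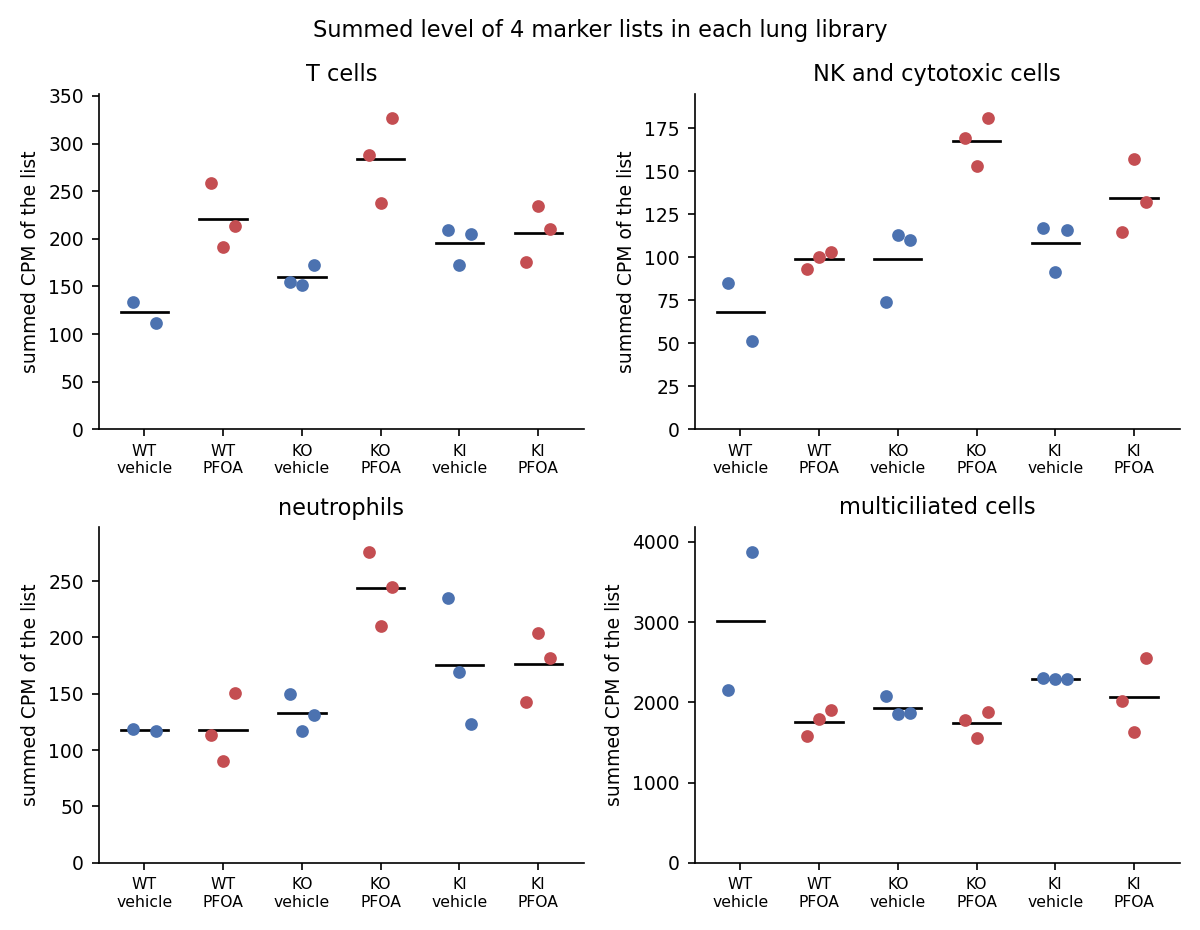
Summed TMM-normalized CPM (y axis) of the T cell, NK and cytotoxic cell, neutrophil and multiciliated cell lists in each library, by genotype and exposure (x axis). Points are mice, blue on vehicle and red on PFOA, and lines are group means. T cell sums are apart in WT and KO only, neutrophil sums in KO only, and WT vehicle mouse 122 has by far the highest multiciliated sum.

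Of 21 neutrophil genes tested, 9 were higher and 1 was lower in all 3 genotypes, and the summed level of the list overlapped between exposures in WT and KI. S100a9, a subunit of calprotectin and a defining gene of neutrophils, was at 0.799 and 1.8 CPM on vehicle and 4.44, 1.46 and 3.34 CPM on PFOA in WT, at 0.921, 1.27 and 5.27 CPM and 12.4, 10.8 and 11.5 CPM in KO, and at 1.59, 3.56 and 1.12 CPM and 1.71, 9.12 and 6.71 CPM in KI. The groups were apart in KO and overlapped in WT and KI. Its log2 fold change of 1.68 ± 0.37 SE (edgeR adjusted p = 0.317) was the highest of the higher genes named by rule. The other same-direction neutrophil genes were S100a8 (1.3 ± 0.46 SE), Retnlg (1.5 ± 0.40 SE), Cxcr2 (1.02 ± 0.29 SE) and Slfn4 (1.19 ± 0.32 SE). S100a8 was below the floor of 3 counts in WT vehicle mouse 107 and KI vehicle mouse 135 (0.133 and 0.141 CPM). Retnlg was below it in KI vehicle mouse 102 (0.318 CPM), so the sizes of both effects are uncertain. The neutrophil list of 21 tested genes had 9 members higher and 0 lower at an unadjusted p under 0.05, and its median was 0.73 for WT, 1.17 for KO and 0.26 for KI.

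Plac8, expressed by circulating monocytes and other leukocytes, was at 1.6 and 0.819 CPM and 5.07, 4.09 and 5.01 CPM in WT, at 2.53, 3.52 and 5.15 CPM and 13.8, 7.13 and 15.1 CPM in KO, and at 6.21, 3.05 and 7.45 CPM and 4.8, 7.58 and 11.9 CPM in KI. WT and KO mice were apart by exposure and KI mice were not. Plac8 had a log2 fold change of 1.25 ± 0.27 SE. Ms4a6c, a membrane protein of monocytes, had one of 1.26 ± 0.26 SE with 1.21 for WT, 1.9 for KO and 0.67 for KI, and its T cell relative Ms4a4b one of 0.88 ± 0.18 SE. MS4A genes are paralogs that lie side by side and can share reads. Chil3 (chitinase-like 3 of monocytes and alveolar macrophages), Itgal and Spn (leukocyte adhesion molecules), Ly6a, Csf1r (the receptor of macrophage colony-stimulating factor) and Ace had log2 fold changes from 0.38 (Csf1r) to 0.95 (Chil3). Ly6a and Ace are also abundant in lung endothelium. Of 28 monocyte genes tested, 15 were higher and 0 lower at an unadjusted p under 0.05, with a median of 0.52 that was 0.37 without WT vehicle mouse 122 and KO vehicle mouse 137. By genotype the monocyte median was 0.51 for WT, 0.72 for KO and 0.14 for KI.

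Tyrobp, the signalling adaptor of myeloid and NK receptors, was at 4.0 and 2.46 CPM and 4.94, 4.24 and 7.71 CPM in WT, at 1.38, 3.94 and 6.78 CPM and 12.1, 9.37 and 13.3 CPM in KO, and at 5.89, 4.45 and 7.17 CPM and 7.31, 7.97 and 7.27 CPM in KI, apart in each genotype (log2 fold change 0.87 ± 0.23 SE, edgeR adjusted p = 0.394). Among 27 myeloid inhibitory receptor genes, 14 were higher and 0 lower at an unadjusted p under 0.05, with Lair1 (a collagen receptor, 0.82 ± 0.20 SE) and Cd300a (0.78 ± 0.26 SE) in the same-direction set. The higher count was 8 without WT vehicle mouse 122 and KO vehicle mouse 137, 7 with the protein-coding share in the model and 8 with the library code, and the list median was 0.38 for WT, 0.75 for KO and 0.11 for KI. Of the 9 schlafen genes, which are a family of close paralogs, 5 were higher at that p (2 without WT vehicle mouse 122 and KO vehicle mouse 137 and 3 with the protein-coding share or the library code), and Slfn1 had log2 fold changes of 1.12 for WT, 1.79 for KO and 0.29 for KI. Macrophage lists had lower medians, of 0.33 for 25 alveolar macrophage genes and 0.33 for 20 interstitial macrophage genes, against 0.21 and 0.20 without WT vehicle mouse 122 and KO vehicle mouse 137. The alveolar macrophage list shares Lpl and Abcg1 with the LXR targets.

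Of 19 platelet genes tested, 10 were higher and 1 was lower in all 3 genotypes, with medians of 0.39 for WT, 0.78 for KO and 0.11 for KI. Itgb3 and Itga2b (the chains of the fibrinogen receptor) had log2 fold changes of 0.49 ± 0.11 SE and 0.70 ± 0.21 SE, Ppbp (a platelet chemokine) 1.17 ± 0.32 SE, Tubb1 (platelet β-tubulin) 0.76 ± 0.25 SE, Clec1b (the podoplanin receptor) 0.32 ± 0.10 SE and Vwf (von Willebrand factor, also endothelial) 0.44 ± 0.12 SE. Mmrn1, multimerin 1 of platelets and endothelium, was apart in each genotype at 8.75 to 25.3 CPM in the vehicle libraries and 24.8 to 34.4 CPM in the PFOA libraries, with a log2 fold change of 0.55 ± 0.14 SE. At an unadjusted p under 0.05, 6 platelet genes were higher and 0 lower. The platelet list median was 0.43, and 0.34 without WT vehicle mouse 122 and KO vehicle mouse 137. The median of 15 erythroid genes was 0.04, with 0 higher and 1 lower.

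**Figure D4:**
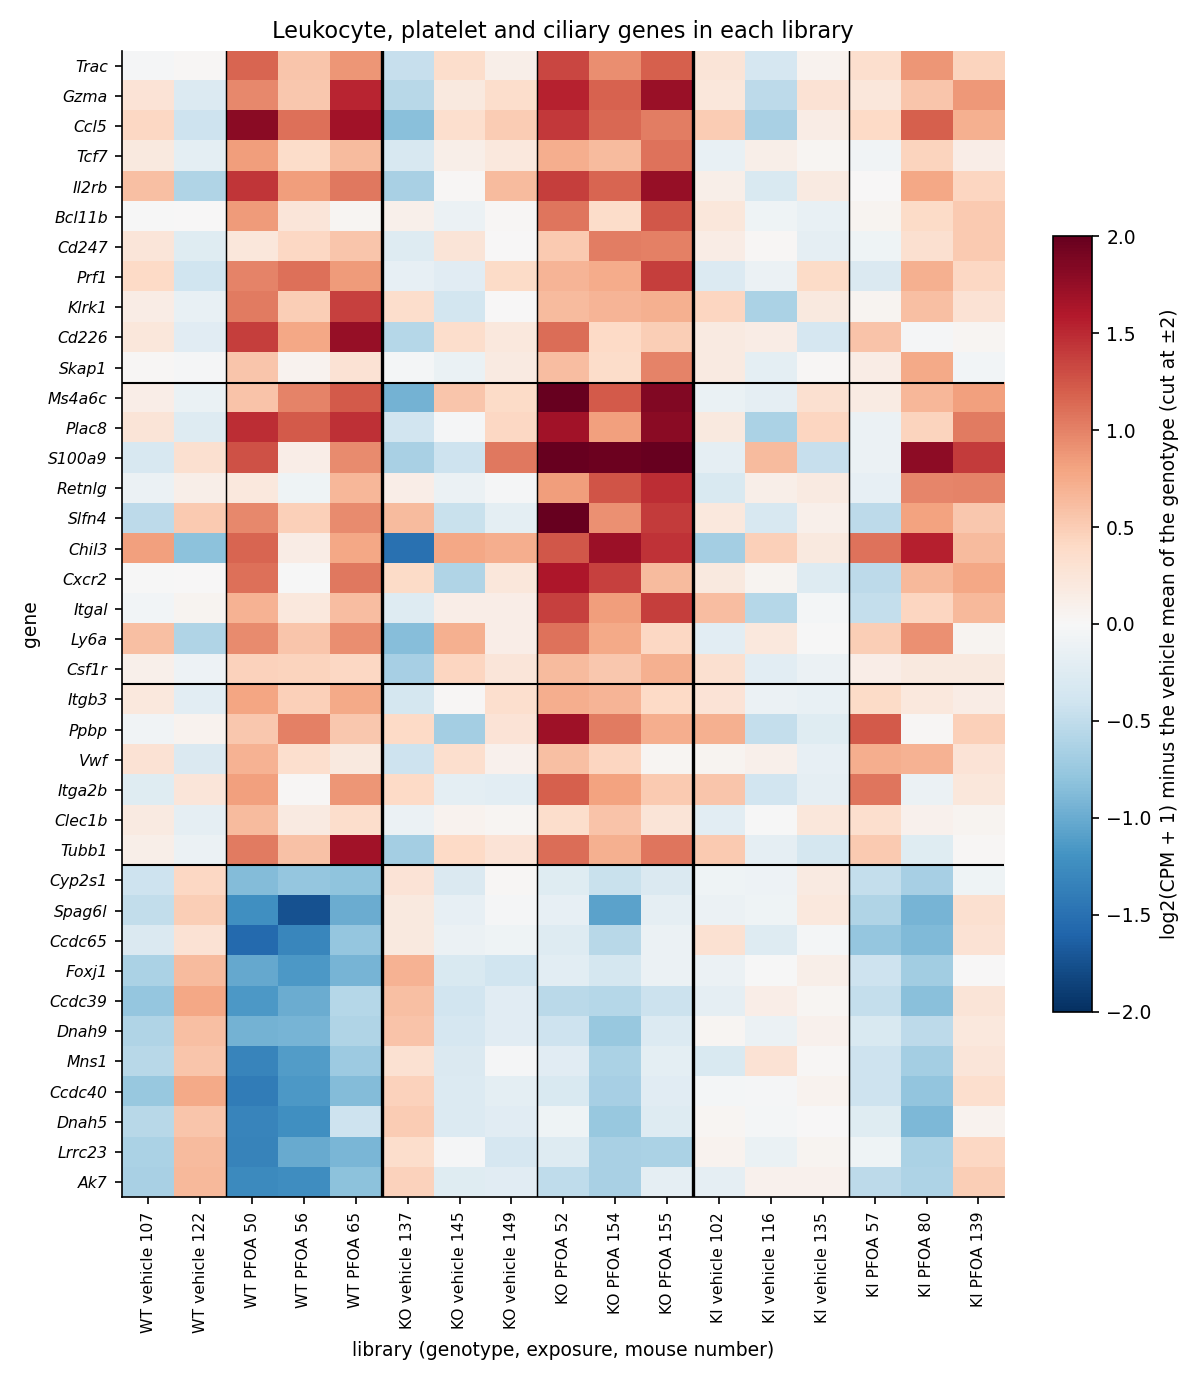
Same-direction genes of low p from the T and NK, monocyte and neutrophil, platelet and multiciliated cell lists (rows, blocks divided by lines) in each library (columns). Colour is log2(CPM + 1) minus the vehicle mean of the same genotype, limited to ± 2. T and NK rows are about equally red in the WT and KO PFOA libraries and paler in KI, monocyte and neutrophil rows are reddest in KO PFOA, and ciliary rows are bluest in WT PFOA, where WT vehicle mouse 122 is red and mouse 107 is blue.

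Interferon-stimulated genes were compared as a list and singly. Of 42 tested, 25 were higher and 0 lower in all 3 genotypes, and 22 were higher at an unadjusted p under 0.05. The median was 0.33, with 0.23 for WT, 0.34 for KO and 0.33 for KI, and 0.24 without WT vehicle mouse 122 and KO vehicle mouse 137. The WT median was 0.05 without them, -0.0057 with the protein-coding share in the model and -0.06 with the library code. Members higher in all 3 genotypes were 16 without those 2 libraries, 11 with the protein-coding share and 13 with the library code, and members higher at that p were 14 without them, 12 with the share and 11 without KI PFOA mouse 139. The same-direction members were Tap1 (the peptide transporter of antigen presentation, 0.49 ± 0.13 SE), Irgm2 and Iigp1 (immunity-related GTPases, 0.60 ± 0.20 and 0.83 ± 0.24 SE), Oas3 (an antiviral oligoadenylate synthetase, 1.32 ± 0.43 SE) and Gbp3 (a guanylate-binding protein, 0.41 ± 0.14 SE). Tap1 was at 18.9 and 20.8 CPM and 34.7, 26.6 and 30.8 CPM in WT, at 38, 45.7 and 41.3 CPM and 59.1, 51.7 and 57.3 CPM in KO, and at 50.6, 28.8 and 48.6 CPM and 37.8, 72.3 and 65.1 CPM in KI. Tap1 was apart in WT and KO, and in KI mouse 57 lay within the vehicle range. For Oas3, KO PFOA mouse 52 was at 9.83 CPM, while KO PFOA mice 154 and 155 (1.28 and 1.5 CPM) lay within the KO vehicle range. Oas3 was below the floor of 3 counts in WT vehicle mouse 122 (0.164 CPM).

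Some class I genes outside that list were higher as well, and a link of these to interferon was not tested. H2-K1, a classical class I heavy chain, was at 295 and 274 CPM and 338, 298 and 349 CPM in WT, at 273, 464 and 430.1 CPM and 569.9, 469 and 509 CPM in KO, and at 443, 402 and 427 CPM and 456, 590.1 and 535 CPM in KI, apart in each genotype (log2 fold change 0.32 ± 0.10 SE). Ly6e, an interferon-inducible surface protein, was apart as well, with a log2 fold change of 0.43 ± 0.14 SE. By symbol, a grouping made after the values were seen, 14 protein-coding H2 class I genes had at least 1 CPM, 7 were higher in all genotypes and 1 was lower, and H2-K1, H2-Q4, H2-Q7, H2-T22 and H2-T23 were in the higher same-direction set and H2-M5 in the lower one. These genes are near-identical copies in part, and their reads can be split. The promoter of Gbp3 (chr3:142559794-142560093, plus strand, plus 1 further start) is shown because it held 2 overlapping copies of the interferon-stimulated response element (GAAANNGAAAC, both strands, in capitals), which began 46 and 40 bases before the start on the reverse strand.
Gbp3: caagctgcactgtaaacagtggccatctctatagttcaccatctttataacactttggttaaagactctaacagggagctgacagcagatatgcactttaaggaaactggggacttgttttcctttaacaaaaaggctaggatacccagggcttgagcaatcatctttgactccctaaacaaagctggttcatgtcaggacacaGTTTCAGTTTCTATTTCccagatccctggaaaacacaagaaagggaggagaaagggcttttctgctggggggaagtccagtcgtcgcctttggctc
That element was in 0.944% of the 27025 genes with a promoter window, in 15 of 32 interferon-stimulated genes with a window, in 6 of 171 higher and in 0 of 161 lower same-direction genes.

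Genes of multiciliated airway cells were lower on PFOA, most of all in WT. Foxj1 (chromosome 11, 116330704 to 116335399, minus strand, ENSMUSG00000034227), the master transcription factor of motile cilia, was at 28.6 and 69.9 CPM on vehicle and 21.7, 19.6 and 23 CPM on PFOA in WT, at 55.5, 27.3 and 25.4 CPM and 29, 26.2 and 31.1 CPM in KO, and at 43.5, 46.7 and 51.3 CPM and 35, 28.8 and 47.1 CPM in KI. The WT groups were apart, with mouse 122 far above mouse 107, and the KO and KI groups overlapped. The log2 fold change of Foxj1 was -0.58 ± 0.18 SE (edgeR adjusted p = 0.468), with -1.2 for WT, -0.31 for KO and -0.35 for KI, and -0.21 without WT vehicle mouse 122 and KO vehicle mouse 137. Of 28 multiciliated cell genes tested, 19 were lower and 0 higher in all 3 genotypes, and 17 were lower and 0 higher at an unadjusted p under 0.05. The list median was -0.53, with -1.09 for WT, -0.37 for KO and -0.18 for KI. Without those 2 libraries the median was -0.21, 3 members were lower at that p, and the same-direction members went from 11 to 1. The same-direction count was 1 after adding the protein-coding share to the model and 2 with the library code. Without KI PFOA mouse 139, whose ciliary sum was the highest of the PFOA libraries, the median was -0.66 and 18 members were same-direction. Several list members, Foxj1, Ccdc40, Ccdc65, Spag6l, Ak7, Lrrc23 and Mns1 among them, were reported by the study as lower in WT lungs on PFOA. The counts and the WT median of the list are therefore not independent of that report.

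The same-direction ciliary genes covered the parts of the axoneme. Dnah5 and Dnah9 (outer arm dynein heavy chains) had log2 fold changes of -0.54 ± 0.19 SE and -0.52 ± 0.17 SE, Ccdc39 and Ccdc40 (the axonemal ruler) -0.62 ± 0.20 SE and -0.62 ± 0.21 SE, Ccdc65 (nexin link) -0.67 ± 0.21 SE, Spag6l (central apparatus) -0.70 ± 0.21 SE and Ak7 (an adenylate kinase of the axoneme) -0.58 ± 0.20 SE. Mns1, Lrrc23 and the airway cytochrome Cyp2s1 completed the set, at -0.55, -0.57 and -0.52. Over 29 alternative fits the effects smallest in size were -0.25 for Dnah5, -0.19 for Dnah9, -0.23 for Ccdc39, Ccdc40 and Ak7, and -0.24 for Lrrc23. For Ccdc65, Spag6l, Mns1 and Cyp2s1 they were -0.50, -0.45, -0.29 and -0.33. Dnah6, an inner arm dynein, was at 101 and 219 CPM and 67.3, 73.8 and 92.9 CPM in WT, at 217, 109.6 and 108 CPM and 94.7, 77.1 and 102 CPM in KO, and at 145, 157 and 188 CPM and 123, 111 and 161 CPM in KI, with a log2 fold change of -0.65 ± 0.17 SE. WT and KO groups were apart, and in KI mouse 139 lay above 2 of the 3 vehicle libraries. Tctex1d4, a dynein light chain of the Tctex family, was apart in each genotype (-1.28 for WT, -0.66 for KO and -0.47 for KI). By symbol, again after the values were seen, 12 of 15 Dnah genes and 18 of 31 Cfap genes with at least 1 CPM were lower in all 3 genotypes, against 14.1% of all autosomal genes. These family counts were made with all libraries only, WT vehicle mouse 122 and KO vehicle mouse 137 included.

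The promoter of Spag6l (chr16:16829314-16829613, minus strand) is shown for the X-box (GTNNCCNNNGNNAC, both strands, in capitals), the element that RFX factors are known to bind at ciliary genes, which began 34 bases after the start and reads on both strands at the same place.
Spag6l: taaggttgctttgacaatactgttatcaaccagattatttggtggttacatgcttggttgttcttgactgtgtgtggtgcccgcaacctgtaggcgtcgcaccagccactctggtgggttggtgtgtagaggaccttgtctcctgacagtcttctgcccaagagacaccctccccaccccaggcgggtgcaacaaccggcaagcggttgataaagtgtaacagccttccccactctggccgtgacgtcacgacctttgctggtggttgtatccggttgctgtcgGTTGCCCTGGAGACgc
The X-box letters were in 5.26% of the genes with a promoter window, in 5 of 24 multiciliated cell genes with a window, in 25 of the 161 lower same-direction genes and in 4 of the 171 higher ones.

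Club cell genes were lower to a lesser extent. Scgb1a1, the secretoglobin that defines these cells, was at 9979.9 and 21353 CPM on vehicle and 5799.6, 5653 and 7199 CPM on PFOA in WT, at 6877, 6177 and 6768 CPM and 5778, 4079 and 6015 CPM in KO, and at 5483, 8210.4 and 8383 CPM and 5369, 5372 and 8997 CPM in KI. Only the WT and KO groups were apart, and WT vehicle mouse 122 held over 2-fold the level of mouse 107. Its log2 fold change was -0.56 ± 0.20 SE, and -0.33 without WT vehicle mouse 122 and KO vehicle mouse 137. The median of 24 club cell genes was -0.28, and -0.02 without those libraries. WT vehicle mouse 122 combined a low protein-coding share with the highest airway gene levels, and the part of airway content in the sampled piece was not tested. Alveolar type 2 genes had a median of 0.27, which was 0.06 without them.

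Sox2, a transcription factor of the airway epithelium, was the lower gene with the smallest p. It was at 11.2 and 23.7 CPM on vehicle and 7.6, 7.89 and 8.22 CPM on PFOA in WT, at 20.5, 8.16 and 14.6 CPM and 8.64, 7.35 and 7.63 CPM in KO, and at 17.8, 14.3 and 16.4 CPM and 8.56, 8.35 and 12.9 CPM in KI. WT and KI were apart and KO overlapped. Sox2 had a log2 fold change of -0.88 ± 0.17 SE (edgeR adjusted p = 0.288), with -1.13 for WT, -0.85 for KO and -0.71 for KI, and -0.61 without WT vehicle mouse 122 and KO vehicle mouse 137. DESeq2 called it with an adjusted p of 0.0112. Other lower genes named by rule were Slc4a5 (a sodium bicarbonate cotransporter, -0.57 ± 0.14 SE), Mok (a protein kinase, -0.74 ± 0.18 SE), Pkhd1 (fibrocystin, -0.83 ± 0.21 SE), Fut2 (a fucosyltransferase of mucosal glycans, -1.1 ± 0.28 SE), 2700081O15Rik (-0.36 ± 0.09 SE) and Inhbb (the activin βB subunit, -0.55 ± 0.14 SE). Inhbb had a log2 fold change of -0.13 in KO against -1.06 in WT, and its interaction p was 0.02 unadjusted in the edgeR fit. Nsmf, Dapk3 (death-associated kinase 3) and Rph3al (a Rab effector of exocytosis) were apart in each genotype with small effects of -0.31 ± 0.08 SE, -0.27 ± 0.09 SE and -0.31 ± 0.10 SE.

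Among the higher genes outside the immune lists, Cyp26b1, which degrades retinoic acid, was at 41.3 and 22.3 CPM and 70.2, 57 and 67.6 CPM in WT, at 16.4, 39.5 and 9.42 CPM and 60.6, 66.6 and 18.5 CPM in KO, and at 23.4, 7.26 and 6.61 CPM and 59.3, 41.4 and 42.8 CPM in KI. WT and KI were apart, and in KO PFOA mouse 155 lay below vehicle mouse 145. Its log2 fold change was 1.39 ± 0.30 SE (edgeR adjusted p = 0.317), a 2.62-fold difference. Lrg1, a leucine-rich glycoprotein of the acute phase, was at 26.8 and 18.5 CPM and 28.9, 23.2 and 31.7 CPM in WT, at 15.7, 22.5 and 29.1 CPM and 42.5, 42.6 and 42.2 CPM in KO, and at 15.4, 28.5 and 27.8 CPM and 49, 40.9 and 42.5 CPM in KI, apart in KO and KI. Lrg1 had a log2 fold change of 0.72 ± 0.14 SE (edgeR adjusted p = 0.288). Serpina3g, a serine protease inhibitor with close paralogs, was the other same-direction member of the acute phase list (1.19 ± 0.29 SE). The list as a whole had a median of 0.06 over 25 genes, with 7 higher and 3 lower at an unadjusted p under 0.05. The remaining higher genes named by rule were Coro2a (an actin-binding coronin, 0.48 ± 0.10 SE), Hivep1 (0.27 ± 0.08 SE), Limd2 (0.30 ± 0.09 SE), Acp1 (a low molecular weight phosphatase, 0.34 ± 0.11 SE) and Arl5a (a small GTPase, 0.27 ± 0.11 SE). All but Coro2a were apart in each genotype.

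Stress-related lists had few members with 1 direction. Hspa1a and Hspa1b, near-identical inducible HSP70 genes that share reads, had the lowest fold changes of the described genes at -1.55 ± 0.39 SE and -1.6 ± 0.43 SE. Hspa1a was at 21.7 and 99.6 CPM and 10.4, 8.19 and 22.1 CPM in WT, at 37.3, 23.9 and 17.8 CPM and 14.6, 17.5 and 15.6 CPM in KO, and at 8.91, 118 and 31.1 CPM and 14.8, 10.4 and 19.1 CPM in KI, so that WT vehicle mouse 122 and KI vehicle mouse 116 held the highest values. The median over the 26 heat shock and unfolded protein genes was -0.0097. Among immediate early genes, Nr4a2 and Nr4a3, orphan nuclear receptors, had log2 fold changes of -0.71 ± 0.19 SE and -0.95 ± 0.28 SE. In the clock list, Arntl was at 0.63 ± 0.21 SE and Per2, which cycles in opposite phase, at -0.55 ± 0.17 SE. Lists of tissues that can adhere to lung had medians that differed in sign between genotypes, at 1.69, 0.32 and -0.45 for cardiac muscle and 0.91, 1.02 and -0.64 for adipose tissue in WT, KO and KI order. The adipose list shares Lpl with the LXR targets, and the part of either tissue in other values was not tested. No member of the Toll-like receptor, cell cycle, collagen or NRF2 lists was same-direction. The inflammasome list had 4 of 21 members higher at an unadjusted p under 0.05, Naip2 being same-direction (0.47 ± 0.15 SE).

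**Figure D5:**
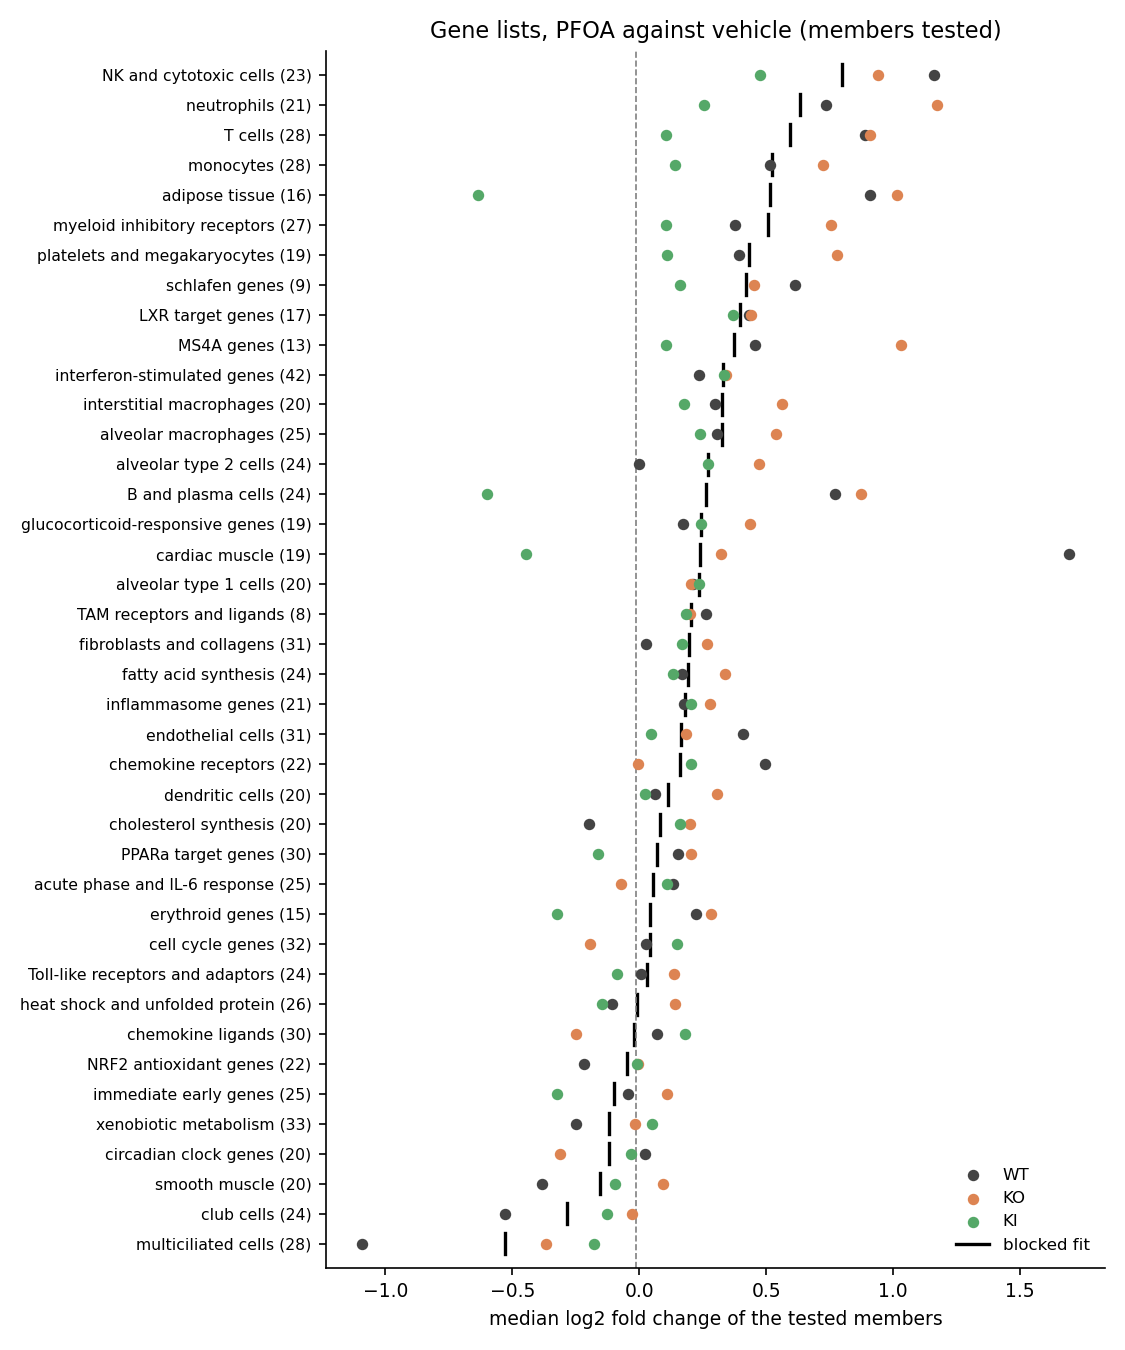
Median log2 fold change of PFOA against vehicle (x axis) over the tested members of each of 40 gene lists (y axis, members tested in parentheses). Dots are WT, KO and KI, the black bar is the blocked fit and the dashed line the median of all autosomal genes. The LXR list has its dots at 0.37 to 0.44 with all libraries, the T cell, NK and neutrophil lists lie lower in KI than in WT and KO, and the multiciliated list has the lowest bar, with its WT dot furthest from 0.

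The size of the effect was also compared between genotypes. The edgeR test of genotype by exposure called 0 autosomal genes at an adjusted p under 0.2 (0%, smallest adjusted p 0.852), with 1431 at an unadjusted p under 0.05, and DESeq2 called 5. Among the 512 same-direction genes 26 had an unadjusted edgeR interaction p under 0.05, 12 higher and 14 lower. This share was near that of all autosomal genes (1431 of 26073), so it sets the same-direction genes apart in no way. Of the 26, those named above were Cd27 (0.0385), Slfn1 (0.0219), Ncr1 (0.00859), Spn (0.0362), Cd226 (0.0442), Inhbb (0.02), Lrrc23 (0.0388) and Scgb1a1 (0.031). None of them was called after adjustment. A shared sign does not show effects of equal size.

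The library names carry a code with 4 values, which the labels do not explain. Each code was found with both exposures, and all KO PFOA libraries had the same code, so within KO the code and the exposure cannot be told apart. Of the 36 genes named by rule, 27 had the same sign of the mean log2 CPM difference within each of the 4 codes, and all 36 within each sex. Over all 105 same-direction genes described, list members included, the sign was the same within each code for 62 and within each sex for 95. Both sets were chosen by p or by separation in these same libraries. That choice favours agreement within their parts, so these counts are no independent check. In 1 sex it turned for S100a8, Slfn4, Cd300a, Itgal, Cxcr2, Nr4a3, Slfn1, S1pr5, Bcl11b and Tap1, and the differences within sexes ran from -0.64 to 1.71 for S100a8 and from -0.32 to 1.51 for Slfn4. For Mylip the differences within codes ran from 0.36 to 1.74, for Abca1 from 0.12 to 1.57, for Lpl from -0.06 to 1.27 and for Sox2 from -1.15 to 0.04. Within the sexes they were 0.85 to 1.03 for Mylip. These differences mix genotypes, since no code holds all groups and no male library is KO. The signs that turned did so in males, where sex and the absence of KO mice cannot be told apart.

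Some values are less certain because annotated genes overlap and the use of strand in the counting is not stated. Overlap with a gene on the opposite strand holds for Srebf1 (Rai1), Lpcat3 (Emg1), Tap1 (Psmb9), Cd27 (Vamp1), Stard5 (Il16), Tctex1d4 (Plk3), 2700081O15Rik (Rtn3), Csf1r (Hmgxb3), Ccdc39 (Ttc14), Mns1 (Tex9), Cd247 (Pou2f1) and, with unnamed or antisense transcripts, for Tcf7, Cd3e, Ace, Ms4a6c, Coro2a, Cyp2s1, Dapk3, Dnah6, Dnah9, Limd2, Rph3al, Retsat, Acaca, Arntl and S1pr5. On the same strand, Sox2 lies within Sox2ot, Irgm2 overlaps Igtp, Clec1b overlaps Clec9a, and Abcg1, Pkhd1, Spag6l, Naip2 and Serpina3g overlap small or pseudogene annotations.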

How the data were processed

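Total RNA from mouse lung was extracted with the RNeasy kit and made into libraries with the SMARTer Stranded Total RNA-Seq Pico kit. According to the study's methods and the submitters' processing notes, the authors trimmed low-quality 3′ ends of reads, used Partek Flow to align them with STAR 2.6 against mm10, estimated counts by expectation maximization and summed them to genes. The deposited table holds these estimated counts per gene, which need not be whole, with no normalization. They were rounded to whole numbers here. Because reads shared by similar genes are apportioned by the model, paralogs are less certain. The notes also list DESeq2 3.5, and the use of strand in counting is not given in the sources used here.

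Genes with a total count of at least 20 were fitted in edgeR 4.0.16 (R 4.3.3) with TMM scaling, genotype and treatment as terms and the quasi-likelihood F-test, with Benjamini-Hochberg adjustment over all 26946 tested genes. Autosomal genes were then reported. Effects per genotype and their 2 degree of freedom interaction came from a fit with 1 coefficient per group. A gene was called at an adjusted p under 0.2. DESeq2 1.42.0 was an alternative, with other scalings, filters, covariates and the omission of each library. The tests were tried on simulated counts. Replicates are separate mice, numbered by mouse, so groups share no numbers. With 2 or 3 mice per group no outlier test was made.

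Named genes were autosomal, protein-coding and at a mean of at least 1 CPM: those called, the separated genes (up to 12 higher and 8 lower), up to 10 further same-direction genes per direction by p, and same-direction members of the gene lists. Family counts by symbol and Cma1 fall outside this rule and were picked with their values in view. A member of the T cell list is not reported here. The members and gene lists were chosen with earlier results of these data known. The multiciliated, club, T cell and NK lists hold genes that the study had reported for WT lungs on PFOA. Gene names matched GENCODE M21 (GRCm38) once for 30222 of 31245 genes. Total counts were 4116118 to 9237356 per library, and floors cover counting error only.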

Additional observations from a re-analysis of the deposited data

How the results depend on the processing

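Among the described genes, the sign of the blocked effect was steadier than the calls. Most of these genes were picked for a small p in the same libraries, and most alternatives left out 1 library. A kept sign was therefore likely beforehand and is no separate evidence of an effect. Signs within single genotypes were not part of this tally. Over 138 described genes and 3982 alternative values, 3725 kept both sign and side of the adjusted p of 0.2, 249 passed it only under the alternative, 4 lost it, all for Mylip, and 4 turned, all for Nppa, a cardiac gene. Of the 36 genes named by rule, none turned. The log2 fold change of Nppa was -1.53, against 0.24 with sex as a covariate, 0.17 as the mean of the 3 genotype effects and 1.24 in DESeq2, and -2.69 to 3.3 with each library left out. Its highest value came without KI vehicle mouse 102.

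The number of genes called, 1 in edgeR, was 0 after adding the library code to the model, 0 without WT vehicle mouse 122 and KO vehicle mouse 137 together, 16 as the mean of the 3 genotype effects, 119 in DESeq2 on the same genes, 397 in DESeq2 with its default filters, and 0 to 246 with each library left out, the highest without KI PFOA mouse 139. Called genes over 2-fold, 0 in edgeR, were 8 as the mean of the genotype effects, 25 and 22 in DESeq2 on the same genes and with default filters, and 0 to 34 with each library left out. The 512 same-direction genes became 303 with the library code, 272 with the protein-coding share, 293 without both low-share vehicle libraries, 1898 at an unadjusted p under 0.05, 252 with a log2 difference of at least 0.3 required in each genotype, and 264 (without WT vehicle mouse 122) to 791 (without KI PFOA mouse 139) with each library left out. Interaction calls, 0 in edgeR, were 5 in DESeq2 and 0 to 12 with each library left out, the highest without WT vehicle mouse 107. The 23 separated genes became 62 without both low-share libraries, 15 on unscaled CPM and 25 to 99 with each library left out. Leaving out libraries reduces the comparisons that a separated gene must meet. The causes of the other shifts were not tested. RLE scaling gave 240 higher and 301 lower same-direction genes against 257 and 255.

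No paired analysis was possible because mouse numbers are not shared between groups. At 4116118 to 9237356 counts per library, differences of genes under about 1 CPM rest on few counts.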
